A study of Mus musculus with 2 samples.

Results

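The colonic stroma of mice held 523 fibroblast-like cells that carried at least 3 unique molecular identifiers (UMIs) of Nrg1, out of 20007 sequenced cell barcodes. A member also had at least 1 UMI of Pdgfra, fewer than 3 UMIs of the smooth muscle gene Myh11, and at least 2 of 7 subepithelial genes detected, namely Sox6, Bmp3, Bmp5, Bmp7, F3, Foxl1 and Wnt5a. Members are called Nrg1-high cells here. Of them, 57 came from the library of mice with a Pdgfra-driven Cre and 466 from the control library. The 3970 cells that met the same criteria with fewer than 3 Nrg1 UMIs, 1432 in the Cre library and 2538 in the control library, are called other subepithelial cells. The cells were chosen by their own counts of Nrg1, Pdgfra, Myh11 and the 7 subepithelial genes, so the values of these genes are given as descriptions.

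Subepithelial fibroblasts lie directly under the intestinal epithelium and send it signals. Nrg1 encodes neuregulin 1, a ligand of the ErbB receptor family that promotes growth and repair of intestinal epithelium. Sox6 and Foxl1 are transcription factors of subepithelial fibroblasts and telocytes, Bmp3, Bmp5 and Bmp7 encode bone morphogenetic proteins that favour epithelial differentiation near the crypt top, Wnt5a encodes a non-canonical WNT ligand, and F3 encodes tissue factor.

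Both groups of mice carried floxed alleles of Il10ra, the gene of the ligand-binding interleukin 10 receptor chain. The first, Il10ra_ff_Pdgfra_cre, also carried Cre recombinase under Pdgfra, a receptor gene expressed by most fibroblasts; the second, Il10ra_ff, had no Cre and served as its control. The design counts 2 mice of 6 months per genotype, and each genotype gave 1 library, in which the mice cannot be told apart. Viable Podoplanin-positive colon cells without CD45, CD31 or EpCAM had been sorted, so the share of any cell type also reflects that gate. With 1 library per genotype no difference between the genotypes has a replicate check, and no p-values are given.

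The Cre library held 8627 barcodes and 66845139 UMIs, and the control library 11380 barcodes and 76570611 UMIs. After barcodes with under 500 genes or over 10% mitochondrial UMIs were left out, 8413 Cre and 11050 control cells remained. The libraries shared 115 barcode sequences, 2 of them among the Nrg1-high cells of each library. Il10ra had 10 UMIs in the kept Cre cells and 2 in the kept control cells, and none in the Nrg1-high cells of either library, so its deletion could not be checked. Nrg1-high cells had a median of 9819 UMIs in the Cre library and 10765 in the control library. Other subepithelial cells had a median of 9218 UMIs in the Cre library and 8039.5 in the control library.

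The label of these cells was checked against markers and against clusters of all kept cells, made without the genes of the rule. All 5 markers named for the cells, Nrg1, Sox6, Bmp7, Foxl1 and Wnt5a, were detected in the members of both libraries. They are also genes of the rule that chose the members, so their detection cannot check the label. The members nevertheless fell into separate clusters that were picked out after the data were seen and are called by their leading genes. A cluster led by Sox6 and Procr (the endothelial protein C receptor gene) held 31 of the 57 Cre members (54.4%, exact binomial 95% interval 40.7 to 67.6) and 197 of the 466 control members (42.3%, 37.7 to 46.9). A cluster led by Cd36, which encodes a fatty acid carrier, and by Nrg1 itself held 1 Cre member (1.75%) and 244 control members (52.4%). A cluster led by the chemokine gene Cxcl13 held 22 Cre members (38.6%) and 1 control member (0.215%). Other clusters held 3 Cre and 24 control members. All intervals given here cover counting error only.

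**Figure D1:**
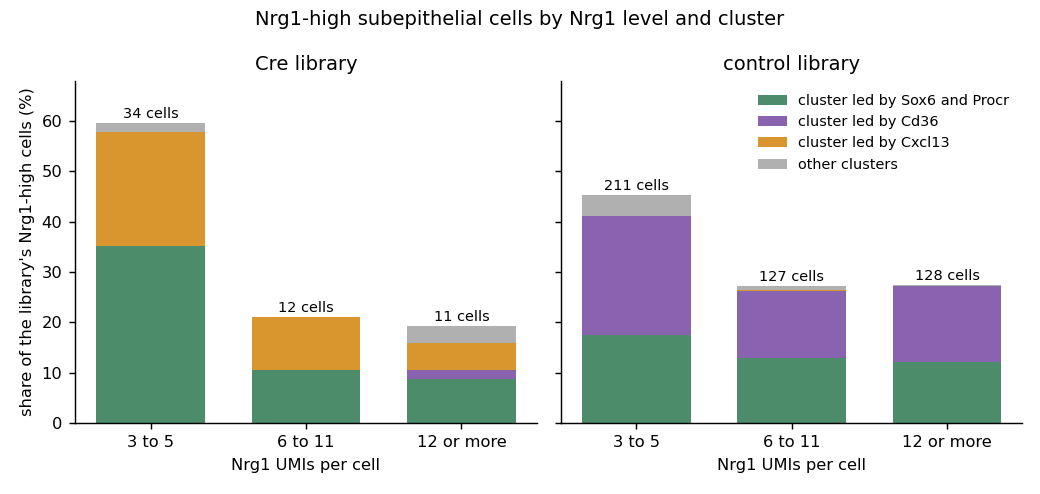
Share of each library's Nrg1-high cells (y axis, percent) by Nrg1 UMIs per cell (x axis) and by cluster (colours), with the number of cells above each bar; Cre library left, control library right. The Cd36-led cluster supplied 244 of 466 control members and 1 of 57 Cre members, and the Cxcl13-led cluster 22 Cre members and 1 control member.

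The Cd36-led and Cxcl13-led clusters were themselves uneven between the libraries. The Cd36-led cluster held 12 kept Cre cells and 691 control cells, and the Cxcl13-led cluster 1787 Cre cells and 73 control cells, so each may be a library rather than a cell type. The Sox6- and Procr-led cluster held 486 Cre cells (5.78% of kept cells) and 1291 control cells (11.7%). Over all its cells, Nrg1 had 498 CPM in the 12 Cre cells and 511 CPM in the 691 control cells of the Cd36-led cluster, and 112 CPM in the Cre cells and 320.1 CPM in the control cells of the Sox6- and Procr-led cluster.

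Sox6 separated the members by cluster. In the Sox6- and Procr-led cluster it reached 1168 CPM (UMIs of a gene summed over the cells and scaled to a common total) in Cre members and 611 CPM in control members. It stood at 3.46 CPM in the Cre members of the Cxcl13-led cluster, which is 1 UMI, and at 23 CPM in the control members of the Cd36-led cluster. Bmp3 followed the same pattern, with 227 CPM in Cre and 91.5 CPM in control members of the first cluster, 0 in Cre members of the Cxcl13-led cluster and 3.72 CPM in control members of the Cd36-led cluster. Wnt5a had 389 CPM in Cre and 424 CPM in control members of the first cluster, 27.7 CPM in the Cxcl13-led and 59.5 CPM in the Cd36-led members. Bmp5 and Bmp7 had the highest levels of the 7 genes outside that cluster. Bmp5 had 200.5 CPM in the Cxcl13-led and 333 CPM in the Cd36-led members, and Bmp7 had 118 CPM in the Cxcl13-led and 159 CPM in the Cd36-led members. Each of the 5 named markers, all genes of the rule, was still detected in the Cxcl13-led Cre and the Cd36-led control members. Sox6 and Foxl1 were low there, and these members are described by the rule and by their clusters' leading genes.

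Within the Sox6- and Procr-led cluster the rule's genes did not all stand higher in Nrg1-high cells than in other subepithelial cells. Sox6 had 1168 CPM in Nrg1-high and 1247 CPM in other Cre cells, and 611 CPM in Nrg1-high and 1136 CPM in other control cells. Bmp3 had 227 CPM in Nrg1-high and 291 CPM in other Cre cells, and 91.5 CPM in Nrg1-high and 234 CPM in other control cells, and F3 had 722 CPM in Nrg1-high and 932 CPM in other Cre cells, and 678 CPM in Nrg1-high and 859 CPM in other control cells. Foxl1 and Wnt5a were higher, with Foxl1 at 60.8 CPM in Nrg1-high and 43.7 CPM in other Cre cells and at 81.9 CPM in Nrg1-high and 42.2 CPM in other control cells, and Wnt5a at 389 CPM in Nrg1-high and 250.0 CPM in other Cre cells and at 424 CPM in Nrg1-high and 275 CPM in other control cells. Of the markers named for these cells, Wnt5a thus stood higher with Nrg1 in both libraries. Foxl1 did so in the control library, and Sox6 stood lower there. In Cre cells Foxl1 had a ratio of 1.39 (exact binomial interval 0.756 to 2.39), from 15 UMIs in Nrg1-high cells. Sox6 had a ratio of 0.937 (0.828 to 1.06) in Cre cells. Bmp7 had ratios of 1.10 (0.858 to 1.40) in Cre and 1.12 (1.02 to 1.23) in control cells. The Cre intervals of Foxl1, Sox6 and Bmp7 included equal levels, so their direction in that library was not resolved.

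**Figure D2:**
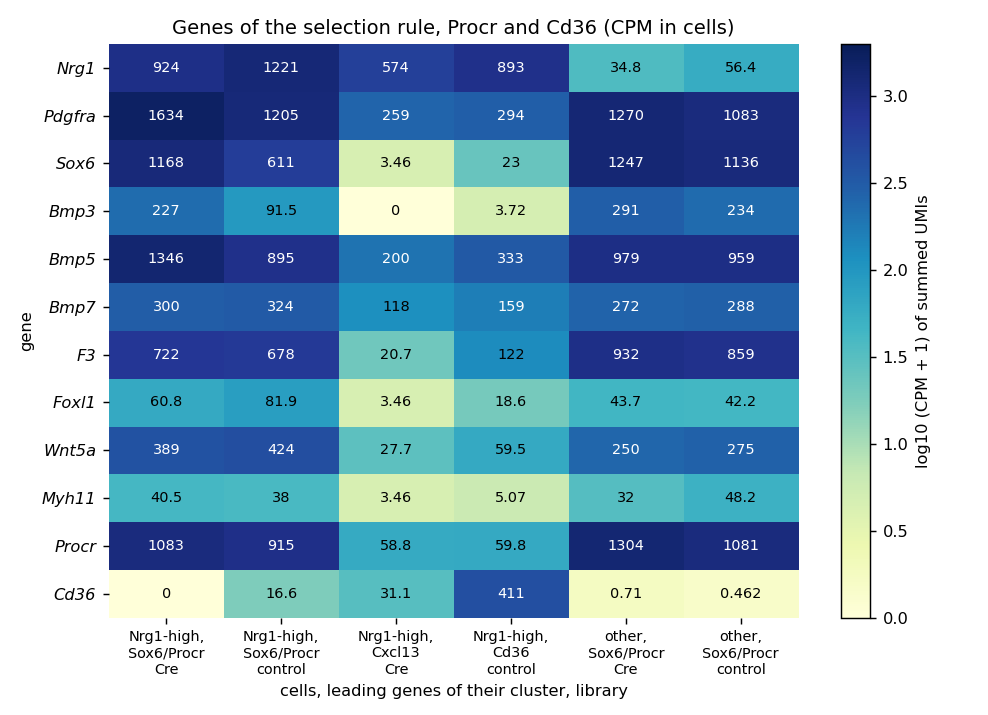
CPM of the genes of the rule, with Procr and Cd36, in Nrg1-high cells by cluster and library and in other subepithelial cells of the Sox6- and Procr-led cluster; colour gives log10 of CPM plus 1. Sox6, Bmp3 and F3 are each higher in the columns of the Sox6- and Procr-led cluster than in Nrg1-high cells of the Cxcl13-led and Cd36-led clusters, while Nrg1 is high in each Nrg1-high column.

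Markers of leukocytes, epithelium and endothelium, which the sort was meant to remove, were low in the members. Of 8 leukocyte markers, 2 were detected in Cre members and 5 in control members, with summed levels of 4.98 CPM in Cre and 7.11 CPM in control members, and Ptprc, the pan-leukocyte gene, had no UMI in either. Of 8 epithelial markers, 1 was detected in Cre members and 6 in control members, at 3.32 CPM in Cre and 3.55 CPM in control members. The 6 endothelial markers summed to 21.6 CPM in Cre and 14.4 CPM in control members, with Cdh5 at 0 in both. Lymphatic, mesothelial, plasma cell, erythrocyte and glial lists each summed to under 15 CPM in the members of either library, and pericyte markers to 68 CPM in Cre and 63.6 CPM in control members. Markers of interstitial cells of Cajal summed to 279 CPM in Cre members, where Kit was at 0, and 186 CPM in control members. In other subepithelial cells they summed to 180 CPM in the Cre library and 199.8 CPM in the control library.

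Summed markers of other fibroblasts and of muscle were compared between the members and other subepithelial cells. The 9 lamina propria fibroblast markers summed to 4386 CPM in Nrg1-high and 2159 CPM in other cells of the Cre library, and to 5034 CPM in Nrg1-high and 2498 CPM in other cells of the control library. The 10 markers of adventitial fibroblasts and trophocytes summed to 4885 CPM in Nrg1-high and 6963 CPM in other Cre cells, and to 3549 CPM in Nrg1-high and 5273 CPM in other control cells. The 8 smooth muscle markers summed to 141 CPM in Nrg1-high and 85.5 CPM in other Cre cells, and to 121 CPM in Nrg1-high and 94.1 CPM in other control cells. In Cre members only 3 of these 8 were detected, with Actg2, Cnn1, Lmod1, Actc1 and Hhip at 0, against 7 in the far more numerous other Cre cells. The muscle sum therefore does not stand for the list as a whole. Thus the lamina propria sum was higher and the adventitial sum lower in the members of both libraries. By cluster, the adventitial sum was 2599 CPM in Sox6- and Procr-led and 6253 CPM in Cxcl13-led Cre members. In control members it was 2217 CPM in Sox6- and Procr-led and 4257 CPM in Cd36-led ones. Abundant genes weigh most in such sums, and Clec3b alone had 2021 CPM in the Cd36-led control members. Scrublet, a doublet caller, marked 2 of the 57 Cre members and 19 of the 466 control members.

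Nrg1-high cells were a smaller part of the subepithelial cells in the Cre library. They were 57 of 1489 subepithelial cells there (3.83%, 2.91 to 4.93) and 466 of 3004 in the control library (15.5%, 14.2 to 16.9). Within the Sox6- and Procr-led cluster they were 31 of 419 in the Cre library (7.40%, 5.08 to 10.3) and 197 of 1146 in the control library (17.2%, 15 to 19.5). When every kept cell was thinned to 3000 UMIs and the rule applied again, 17 of 589 Cre cells (2.89%, 1.69 to 4.58) and 127 of 1493 control cells (8.51%, 7.14 to 10.0) were Nrg1-high; 984 Cre and 1687 control cells were too shallow for this. The order of the libraries was the same in each of these measures. As a ratio, the gap was narrower within the cluster and when the rule was applied again after thinning, which also changed the subepithelial cells counted. Among subepithelial cells chosen before thinning, 21 of 1442 Cre (1.46%) and 183 of 2891 control cells (6.33%) had at least 3 Nrg1 UMIs after it. There the gap as a ratio was not narrower.

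Nrg1 itself had a level of 44.2 CPM over all subepithelial cells of the Cre library (40.8 to 47.7) and 216 CPM in the control library (210.2 to 221). At least 1 Nrg1 UMI was seen in 210 of 1489 Cre cells (14.1%) and in 969 of 3004 control cells (32.3%), and after thinning the same cells to 3000 UMIs in 112 of 1442 Cre cells (7.77%) and 613 of 2891 control cells (21.2%). Cells that should lack the gene, a cluster led by the lymphatic genes Ccl21a, Mmrn1 and Lyve1, showed Nrg1 in 0 of 45 Cre cells, which allows a share of up to 6.67%, and in 1 of 47 control cells (2.13%), at median depths of 2345 and 2067 UMIs. The control share of subepithelial cells lay well above this background, while the thinned Cre share was close to the limit that 45 cells allow. Fewer Nrg1-positive cells and less Nrg1 RNA per cell cannot be told apart in the summed level. Counts per member cannot separate them either, since members were chosen by at least 3 Nrg1 UMIs. Median depth also differed, at 9819 UMIs in Cre members and 10765 UMIs in control members. Among members, the median Nrg1 count was 4 UMIs in Cre cells, with a maximum of 40, and 6 UMIs in control cells, with a maximum of 96. Cre members with 12 or more UMIs numbered 11 of 57 (19.3%, 10.0 to 31.9), and control members 128 of 466 (27.5%, 23.5 to 31.8). At the threshold, 24 Cre and 97 control members had exactly 3 UMIs, and 48 Cre and 157 control cells just outside it had 2.

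The comparison of Nrg1-high with other subepithelial cells asks what else marks the members. It uses the split that the rule made, so its values are a description. A gene counted as measured when the mean of the 2 groups reached 50 CPM, ratios were taken after 5 CPM was added, and a gene was called by size alone when it was at least 2-fold apart. In the Cre library 86 of 3596 measured genes were higher (2.39%) and 76 lower (2.11%) in Nrg1-high cells; in the control library 61 of 3491 were higher (1.75%) and 60 lower (1.72%). Of 3260 genes measured in both libraries, 32 were higher in both and 28 lower in both. The make-up by cluster moved with this comparison. In the control library the Cd36-led cluster held 52.4% of members and 9.46% of other subepithelial cells, and the Sox6- and Procr-led cluster 42.3% of members and 37.4% of other subepithelial cells. In the Cre library the Sox6- and Procr-led cluster held 54.4% of members and 27.1% of other subepithelial cells, and the Cxcl13-led cluster 38.6% of members and 25.3% of other subepithelial cells. Values over all clusters therefore also carry the difference between clusters, in the control library above all that of the Cd36-led cluster.

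Of the ligand genes outside the rule, Ereg and Bmp2 were higher in both libraries. Ereg encodes epiregulin, another ErbB ligand. It had 607 CPM in Nrg1-high and 138 CPM in other subepithelial cells of the Cre library, a ratio of 4.41 (3.93 to 4.94), and 1004 CPM in Nrg1-high and 194 CPM in other control cells, a ratio of 5.18 (4.97 to 5.4); intervals of ratios are exact binomial 95% intervals. It was detected in 37 of 57 Cre and 352 of 466 control members. Hbegf, the gene of heparin-binding EGF-like growth factor, did not share this difference, with 41.5 CPM in Nrg1-high and 47.2 CPM in other Cre cells and 72.4 CPM in Nrg1-high and 75.4 CPM in other control cells. Of the ErbB receptors and neuregulin-cleaving proteases, none of 4 measured genes was 2-fold apart in the Cre library and none of 3 in the control library. Bmp2, another bone morphogenetic protein gene, had 313 CPM in Nrg1-high and 78.1 CPM in other Cre cells, and 621 CPM in Nrg1-high and 209 CPM in other control cells. Among BMP ligands outside the rule Bmp2 was the only one of 4 measured past 2-fold. Bmp4 had 692 CPM in Nrg1-high and 532 CPM in other Cre cells and 768 CPM in Nrg1-high and 802 CPM in other control cells, under 2-fold apart in both libraries. Grem1, the gene of a secreted BMP antagonist, had the lowest ratio among the measured BMP antagonists and targets in both libraries, with 177 CPM in Nrg1-high and 339.9 CPM in other Cre cells, and 43.2 CPM in Nrg1-high and 148 CPM in other control cells. Wnt4, a WNT ligand gene, had 315 CPM in Nrg1-high and 113 CPM in other Cre cells and 390.1 CPM in Nrg1-high and 213 CPM in other control cells, and passed 2-fold in the Cre library only; the libraries' ratios were not compared by a test.

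Some genes of prostanoid synthesis were higher. Ptgs2 and Ptgs1, the cyclooxygenase genes, and Pla2g4a, which encodes the phospholipase that frees arachidonic acid, were at least 2-fold higher in both libraries. Of 8 measured list genes, 3 were higher and 1 lower in the Cre library, where 2.39% of all genes were higher, and 4 were higher and 1 lower in the control library, where 1.75% were. The median log2 ratio of the list was 0.38 in the Cre library, against 0.08 over all measured genes, and 0.86 in the control library, against 0.01. Ptgs2 had 445 CPM in Nrg1-high and 180.1 CPM in other Cre cells and 1436 CPM in Nrg1-high and 326 CPM in other control cells. A single Cre cell held 28.4% of the Ptgs2 UMIs of the Cre members, and without it Ptgs2 was 0.83 log2 units higher there, under 2-fold, so 1 of the 3 Cre calls of the list rests on that cell. Ptgs1 had 146 CPM in Nrg1-high and 59 CPM in other Cre cells, and 294 CPM in Nrg1-high and 105 CPM in other control cells. Ptgis, the prostacyclin synthase gene, went the other way, with 41.5 CPM in Nrg1-high and 142 CPM in other Cre cells and 34 CPM in Nrg1-high and 93.3 CPM in other control cells.

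The other 9 of the 12 highest genes were of several kinds. Agt, the angiotensinogen gene, had 113 CPM in Nrg1-high and 14.3 CPM in other Cre cells, and 322 CPM in Nrg1-high and 40.7 CPM in other control cells. Plau, which encodes urokinase, had 128 CPM in Nrg1-high and 21.5 CPM in other Cre cells and 319 CPM in Nrg1-high and 34.5 CPM in other control cells; 1 cell held 53.2% of its UMIs in Cre members. Receptors for vasoactive peptides were among the genes higher in both libraries. Ednrb, an endothelin receptor gene, had 118 CPM in Nrg1-high and 20.2 CPM in other Cre cells and 141 CPM in Nrg1-high and 54.6 CPM in other control cells, and Bdkrb2, a bradykinin receptor gene, had 184 CPM in Nrg1-high and 54.5 CPM in other Cre cells and 205 CPM in Nrg1-high and 63 CPM in other control cells. The other 5 of the 12 highest genes were Fam162b, Sema3f (a semaphorin), Pappa (a protease of IGF-binding proteins), Emid1 and Tgfbi (a matrix protein induced by TGF-beta), with log2 ratios from 1.31 to 2.26 in the Cre library and from 1.33 to 1.76 in the control library.

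The lower genes were led by genes of adventitial fibroblasts and of matrix. Pi16, a marker of adventitial fibroblasts, had 14.9 CPM in Nrg1-high and 244 CPM in other Cre cells, and 30.6 CPM in Nrg1-high and 245 CPM in other control cells. Ebf1, a transcription factor gene, had 28.2 CPM in Nrg1-high and 343 CPM in other Cre cells and 16 CPM in Nrg1-high and 121 CPM in other control cells. Both genes were low in the members of each library. Mgp, which encodes an inhibitor of calcification, had 395 CPM in Nrg1-high and 2128 CPM in other Cre cells and 435 CPM in Nrg1-high and 1689 CPM in other control cells. Among fibrillar collagens and matrix genes, 5 of 24 were lower and 0 higher in the Cre library, where 2.11% of all genes were lower, and 4 of 25 lower and 0 higher in the control library, where 1.72% were. The list's median log2 ratio was -0.04 in the Cre library, against 0.08 over all genes, and 0.17 in the control library, against 0.01; Col14a1 and Lum were lower in both. Mfap5, Pcolce2, Entpd2, Has1, Prss23, Hmcn2, Slit3 and Mfap4 completed the 12 lowest, with log2 ratios between -3.71 and -1.50 in the Cre library and between -2.57 and -1.55 in the control library. The summed adventitial markers given above include Pi16 and Pcolce2 and moved with these genes.

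The same comparison was then made inside the Sox6- and Procr-led cluster, 31 Nrg1-high against 388 other cells in the Cre library and 197 against 949 in the control library. In Nrg1-high cells, 73 of 3847 genes were higher (1.90%) and 45 lower (1.17%) in the Cre library, and 68 of 3664 higher (1.86%) and 31 lower (0.846%) in the control library. Of 3413 genes measured in both, 24 were higher in both libraries and 11 lower in both. Cdh13, the gene of a cadherin without a cytoplasmic tail, had 134 CPM in Nrg1-high and 13.8 CPM in other Cre cells and 286 CPM in Nrg1-high and 42.1 CPM in other control cells. Plau (279.8 CPM in Nrg1-high and 43 CPM in other Cre cells, 607 CPM in Nrg1-high and 68.7 CPM in other control cells), Agt, Ereg, Bmp2, Ptgs2, Pla2g4a, Tgfbi, Ednrb and Bdkrb2 were at least 2-fold higher in both libraries here, as they were over all clusters. Ereg had 426 CPM in Nrg1-high and 109 CPM in other Cre cells and 793 CPM in Nrg1-high and 186 CPM in other control cells. Vegfa, the gene of the main angiogenic growth factor, had 296 CPM in Nrg1-high and 84.5 CPM in other Cre cells, and 298 CPM in Nrg1-high and 85.4 CPM in other control cells. Postn, which encodes the matrix protein periostin, had 1168 CPM in Nrg1-high and 418 CPM in other Cre cells, and 2345 CPM in Nrg1-high and 949 CPM in other control cells. Vegfa was alike in the 2 libraries in both kinds of cell, while Postn was lower in both kinds of Cre cell than in its control counterpart. Glp2r encodes the receptor of the intestinal hormone GLP-2, and stood at 146 CPM in Nrg1-high and 47.9 CPM in other Cre cells and 133 CPM in Nrg1-high and 56.1 CPM in other control cells. The other higher genes were Bcr, Cd38, Tbx3, Ern1, Abcc4, Rgs2, Pcdh9, Mast4, Filip1, Prex2 and Rgs6.

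Immediate early and dissociation stress genes moved with this comparison in the control library. Of 27 measured there, 2 were at least 2-fold higher in Nrg1-high cells, Ier3 and Nr4a2, and the median log2 ratio was 0.38, against -0.03 over all genes. In the Cre library none of 26 was 2-fold apart and the median was -0.09, against 0.03 over all genes. Nr4a2, an early response transcription factor gene, had 279.8 CPM in Nrg1-high and 225 CPM in other Cre cells, and 626 CPM in Nrg1-high and 283 CPM in other control cells. Over all clusters the median of the list was -0.43 in the Cre library, with 2 of 27 lower, and 0.27 in the control library, with none of 27 apart. Their part in the genes named here was not tested.

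With only 31 Cre members, single cells weighed on this comparison. When the cell with the most UMIs of a gene was left out of the members of each library, 15 of the 24 higher genes and 11 of the 11 lower genes stayed at least 2-fold apart in both libraries, and all kept their direction. Ptgs2 was the most exposed, since 1 cell held 71.0% of its UMIs in these Cre members, and its log2 ratio there was 0.43 without that cell and 2.12 with it. Without their top cell, Pla2g4a and Bdkrb2 also fell under 2-fold in the Cre library, with log2 ratios of 0.76 and 0.87. The same held there for Abcc4, Rgs2, Pcdh9, Filip1, Prex2 and Rgs6. One cell also held 59.4% of Plau UMIs and 30.5% of Ereg UMIs in the Cre members.

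Of the 11 genes lower in Nrg1-high cells of this cluster, Mfap4 and Hmcn2 were also among the 12 lowest over all clusters. Wif1, a secreted WNT inhibitor gene and one of the cluster's own leading genes, had 122 CPM in Nrg1-high and 356 CPM in other Cre cells and 40.1 CPM in Nrg1-high and 214 CPM in other control cells. Il11ra1, the interleukin 11 receptor gene, had 312 CPM in Nrg1-high and 759 CPM in other Cre cells, and 260.1 CPM in Nrg1-high and 879 CPM in other control cells. Ptgis, Fxyd6, Mfap4, Scn7a, Hmcn2, Vgll3, Kcnq5, Dmd and Cdkn2c were the other 9. Contractile genes leaned lower, with medians of -0.30 over 11 measured genes in the Cre library, none of them 2-fold apart, and -0.27 over 11 in the control library, 2 of them at least 2-fold lower. Tagln, the transgelin gene, had 661 CPM in Nrg1-high and 1243 CPM in other Cre cells and 245 CPM in Nrg1-high and 1016 CPM in other control cells, and Acta2, the gene of smooth muscle actin, had 928 CPM in Nrg1-high and 1667 CPM in other Cre cells and 621 CPM in Nrg1-high and 1297 CPM in other control cells. Myh11, which the rule limited, stood at 40.5 CPM in Nrg1-high and 32 CPM in other Cre cells and at 38 CPM in Nrg1-high and 48.2 CPM in other control cells.

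**Figure D3:**
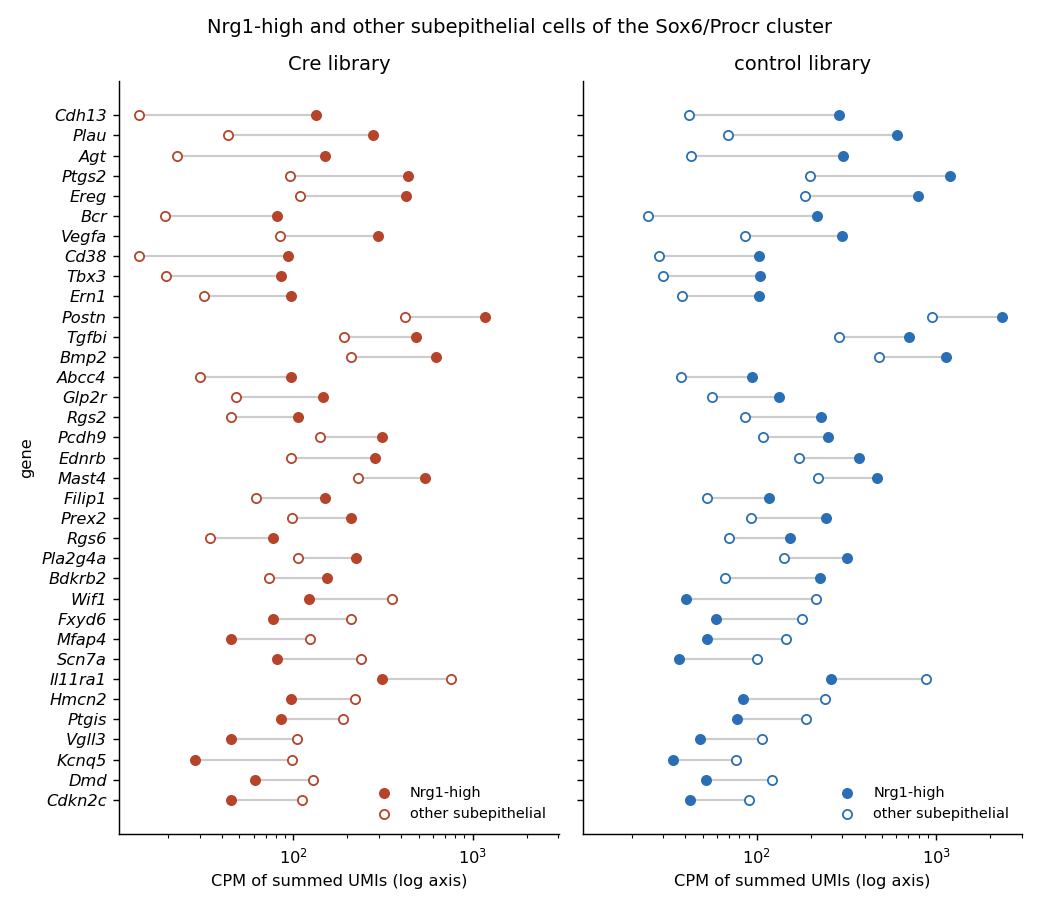
CPM (x axis, log scale) of the genes at least 2-fold apart in the same direction in both libraries between Nrg1-high (filled) and other subepithelial cells (open) of the Sox6- and Procr-led cluster; Cre library left, control library right. The upper 24 genes are higher in Nrg1-high cells and the lower 11, from Wif1 down, are lower, which is how they were chosen.

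Some of these differences were then described by Nrg1 level within the cluster. Bmp2, Tgfbi, Cdh13, Ereg and Wif1 had been chosen by their difference across the threshold of 3 Nrg1 UMIs in these same cells. A difference between the classes below and above that threshold was therefore built in, and the genes given are examples. Cells were split by Nrg1 into 0 UMIs (317 Cre, 662 control cells), 1 to 2 (71 and 287), 3 to 5 (20 and 81) and 6 or more (11 and 116). Bmp2 had 186, 297, 449 and 892 CPM over these classes in the Cre library, and 409, 613, 829 and 1322 CPM in the control library. Tgfbi and Cdh13 likewise stood higher in each class than in the one below it, in both libraries. Ereg had 106, 122, 121 and 892 CPM in Cre cells and 154, 247, 275 and 1099 CPM in control cells, so that its gap lay mostly at 6 or more Nrg1 UMIs. Wif1 had 397, 193, 161 and 61.5 CPM in Cre cells and 260.5, 125, 80.8 and 16.2 CPM in control cells, and Tagln was 1256, 1193, 785 and 471 CPM in Cre cells and 1217, 630.4, 409.6 and 147 CPM in control cells. The highest class rests on 11 cells in the Cre library, and median depth moved with the classes, at 6379, 7296, 6797 and 8331 UMIs in Cre cells and 5979, 7114, 7977 and 10367 UMIs in control cells. The part of depth in these gradients was not tested.

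**Figure D4:**
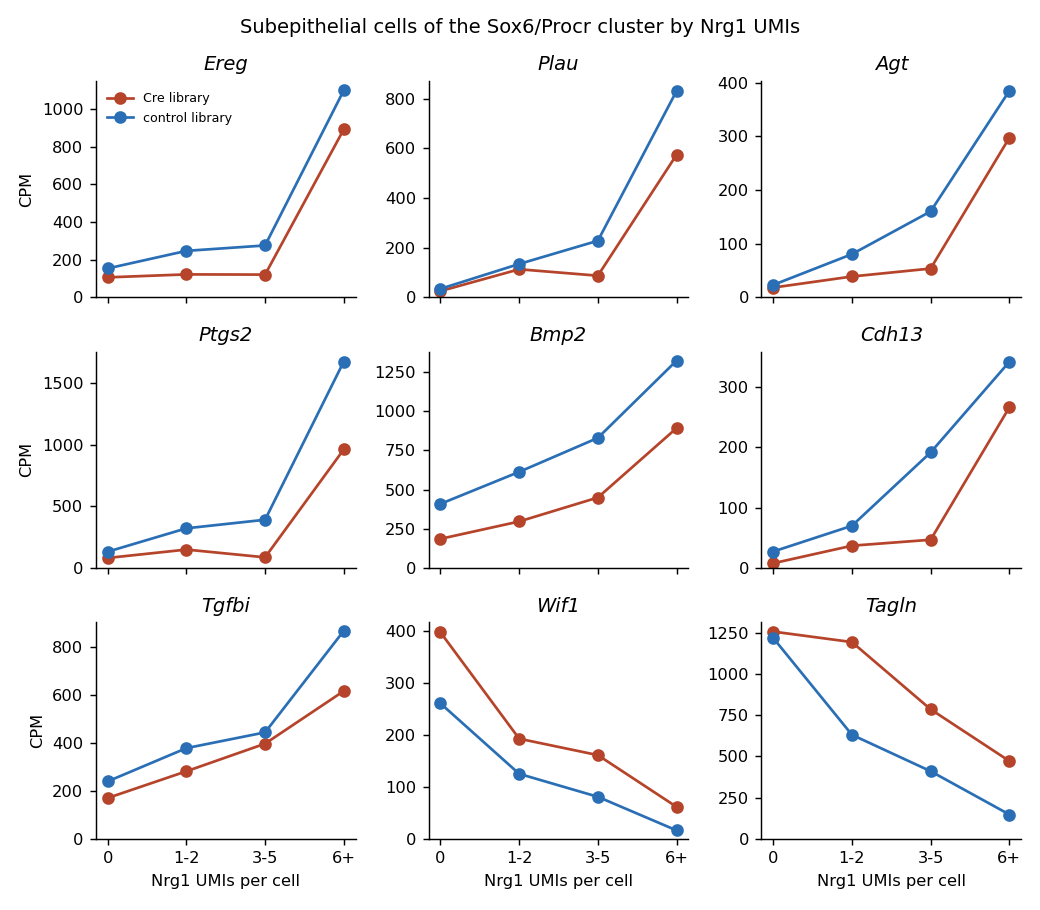
CPM (y axis, from 0) of 9 genes in subepithelial cells of the Sox6- and Procr-led cluster by Nrg1 UMIs per cell (x axis); red, Cre library; blue, control library. Bmp2 and Tgfbi are higher, and Wif1 and Tagln lower, in each class than in the class before it in both libraries, while Ereg and Ptgs2 are highest at 6 or more Nrg1 UMIs, a class of 11 Cre and 116 control cells.

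The members of the Cd36-led cluster were compared with those of the Sox6- and Procr-led cluster in the control library, where Nrg1 had 893 CPM in Cd36-led and 1221 CPM in Sox6- and Procr-led members. Of 3509 measured genes, 136 were higher (3.88%) and 162 lower (4.62%) in the Cd36-led members; since clusters are built from such genes, this count is a description. All 6 measured ion channel and vasoactive receptor genes were lower, as were 5 of 11 contractile genes and 7 of 14 other subepithelial and telocyte genes. Acta2 had 35.1 CPM in Cd36-led and 621 CPM in Sox6- and Procr-led members, and Ednrb had 7.43 CPM in Cd36-led and 371 CPM in Sox6- and Procr-led members. Of FGF, HGF and IGF signals, 7 of 10 were higher. The ErbB and prostanoid genes that marked Nrg1-high cells were present in both kinds of member: Ereg had 1181 CPM in Cd36-led and 793 CPM in Sox6- and Procr-led members, and Ptgs2 had 1616 CPM in Cd36-led and 1199.9 CPM in Sox6- and Procr-led members. Inside the Cd36-led cluster, 244 Nrg1-high and 240 other control cells were alike in most genes, with 4 of 3319 genes at least 2-fold higher in Nrg1-high cells (0.121%) and 2 lower (0.0603%). The 4 were Tnfaip3 (an inhibitor of NF-kB signalling), Ereg, Plau and Prdm1, and the 2 were Ccl11 and H1f4, all 6 named after their values were seen. Ptgs2 had 1616 CPM in Nrg1-high and 940 CPM in other control cells of this cluster. Ptgs1 had 264 CPM in Nrg1-high and 166 CPM in other cells there, and Agt 358 CPM in Nrg1-high and 206 CPM in other cells. These genes were under 2-fold apart, so other cells of the Cd36-led cluster carried them too. In the Cre library the Cxcl13-led members were further from the Sox6- and Procr-led ones, with 279 of 3756 genes higher (7.43%) and 459 lower (12.2%), among them 13 of 14 complement and acute phase genes higher and 11 of 11 contractile genes lower.

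The comparison of the genotypes within Nrg1-high cells addresses how these cells differ where Cre could act on Il10ra. In Cre members, 105 of 3583 genes (2.93%) passed 2-fold upward and 72 downward (2.01%) relative to control members. In other subepithelial cells the same contrast gave 70 of 3489 higher (2.01%) and 13 lower (0.373%), from 1432 Cre and 2538 control cells. Different clusters held most of the members in each library, the Sox6- and Procr-led and Cxcl13-led clusters in the Cre library and the Cd36-led and Sox6- and Procr-led clusters in the control library, so the gene lists below are also given for the Sox6- and Procr-led members alone. There, 138 of 3801 genes were higher (3.63%) and 105 lower (2.76%) in 31 Cre members than in 197 control members, and in the other subepithelial cells of that cluster 40 of 3711 were higher (1.08%) and 10 lower (0.269%). Calls were by size alone, and the 31 Cre members held 246637 UMIs against 2816593 UMIs in the 388 other Cre cells. The median absolute log2 ratio over all measured genes was 0.29 in these members and 0.13 in these other cells. Over all clusters it was 0.23 in members and 0.13 in other subepithelial cells. The counts are therefore not compared between the 2 kinds of cell, and the part of cell number in them was not tested.

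Antigen presentation genes were higher in Cre members. Of 9 MHC class I genes, 8 passed 2-fold upward and none downward, with a median log2 ratio of 2.19, against 0.02 over all measured genes. The median was 2.05 in the Sox6- and Procr-led members, with 6 of 9 higher, and 2.03 in other subepithelial cells, with 8 of 8. B2m, the light chain gene, had 3432 CPM in Cre members and 748 CPM in control members, and 2331 CPM in Cre and 584 CPM in control members of the Sox6- and Procr-led cluster. H2-K1, a classical heavy chain gene, had 3221 CPM in Cre and 524 CPM in control members, and 2116 CPM in Cre and 383 CPM in control members of that cluster. H2-Q6 had 378 CPM in Cre and 10.5 CPM in control members, and H2-Q7 had 484 CPM in Cre and 16.4 CPM in control members; they are near-identical genes whose reads may be split between them. H2-Q6 was detected in 43 of 57 Cre members and 38 of 466 control members, and had 369 CPM in Cre and 3.75 CPM in control members of the Sox6- and Procr-led cluster.

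Interferon response genes were divided. Of 20 measured genes of the interferon gamma response and its GTPases, 13 were higher and none lower in Cre members, with a median log2 ratio of 1.43; the median was 1.25 in the Sox6- and Procr-led members and 1.39 in other subepithelial cells. Tgtp2, a GTPase gene with a near-identical neighbour, had 191 CPM in Cre and 19.9 CPM in control members, and Iigp1, another GTPase gene, had 746 CPM in Cre and 95.9 CPM in control members. Irf1, the gene of an early interferon response factor, and Socs1, the gene of a feedback inhibitor, had the lowest ratios of the list. Irf1 had 468 CPM in Cre and 594 CPM in control members, and Socs1 had 103 CPM in Cre and 144 CPM in control members. The type I interferon response list had 4 of 14 measured genes higher and none lower, with a median log2 ratio of 0.84. The median was 0.83 over 16 genes in the Sox6- and Procr-led members and 0.62 over 16 genes in other subepithelial cells. Isg15, a ubiquitin-like protein gene, had 91.2 CPM in Cre and 43.4 CPM in control members, and 195 CPM in Cre and 58.2 CPM in control cells of the other subepithelial kind. When each cell was thinned to 3000 UMIs, the type I list summed to a median of 27 UMIs per cell in 57 Cre members (10th to 90th percentile 16.6 to 61.8) and 18 in 457 control members (9 to 32), and to 30 UMIs in Cre and 21 UMIs in control cells of the other subepithelial kind, so the cells of the libraries overlapped.

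Complement and acute phase genes were higher in Cre members over all clusters, and their median was smaller within the Sox6- and Procr-led cluster. Of 11 measured genes 9 were higher, with a median log2 ratio of 2.17; in the Sox6- and Procr-led members 4 of 9 stood higher and 1 lower, the median being 0.80, and in other subepithelial cells 7 of 11 were higher, with a median of 1.15. Cfb, the complement factor B gene, had 292 CPM in Cre and 6.91 CPM in control members, and 32.4 CPM in Cre and 5.35 CPM in control members of the Sox6- and Procr-led cluster. C3, the central complement gene, had 1159 CPM in Cre and 54.3 CPM in control members, and 231 CPM in Cre and 47.1 CPM in control members of the Sox6- and Procr-led cluster. Saa3, an acute phase gene, had 421 CPM in Cre and 32.8 CPM in control members, but 1 cell held 76.8% of the Cre UMIs and none of the 31 Sox6- and Procr-led Cre members had one. Of the other genes on the list of the 12 highest, Cxcl5 and Cd74 also leaned on 1 cell, with 47.8% and 85.9% of their UMIs in Cre members, and Chl1, Frmpd4, Sfrp2, Lgi2 and Serpina3g had log2 ratios between 3.25 and 4.57. Chl1, Serpina3g, Saa3, Cxcl5 and H2-Q7 are among the leading genes of the Cxcl13-led cluster, which held 22 of 57 Cre and 1 of 466 control members. Within the Sox6- and Procr-led cluster, Chl1 had 16.2 CPM in Cre and 3.75 CPM in control members, Serpina3g 118 CPM in Cre and 6.96 CPM in control members, and Cxcl5 60.8 CPM in Cre and 0.535 CPM in control members. Among Cre members, Sfrp2 had 539 CPM in the Cxcl13-led and 56.8 CPM in the Sox6- and Procr-led cluster, and Lgi2 256 CPM in the Cxcl13-led and 28.4 CPM in the Sox6- and Procr-led cluster. Frmpd4 had 235 CPM in Cre members of the Cxcl13-led and 304 CPM in those of the Sox6- and Procr-led cluster. All of the 12 stayed at least 2-fold higher when the cell with most UMIs of the gene was left out of the members of each library. Cd74 then had 15.3 CPM in Cre and 2.37 CPM in control members, and Cxcl5 82.0 CPM in Cre and 2.18 CPM in control members. Both were then under the mean of 50 CPM at which a gene counts as measured. Saa3 in control members fell from 32.8 to 1.78 CPM, so that value also rested mostly on 1 cell.

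**Figure D5:**
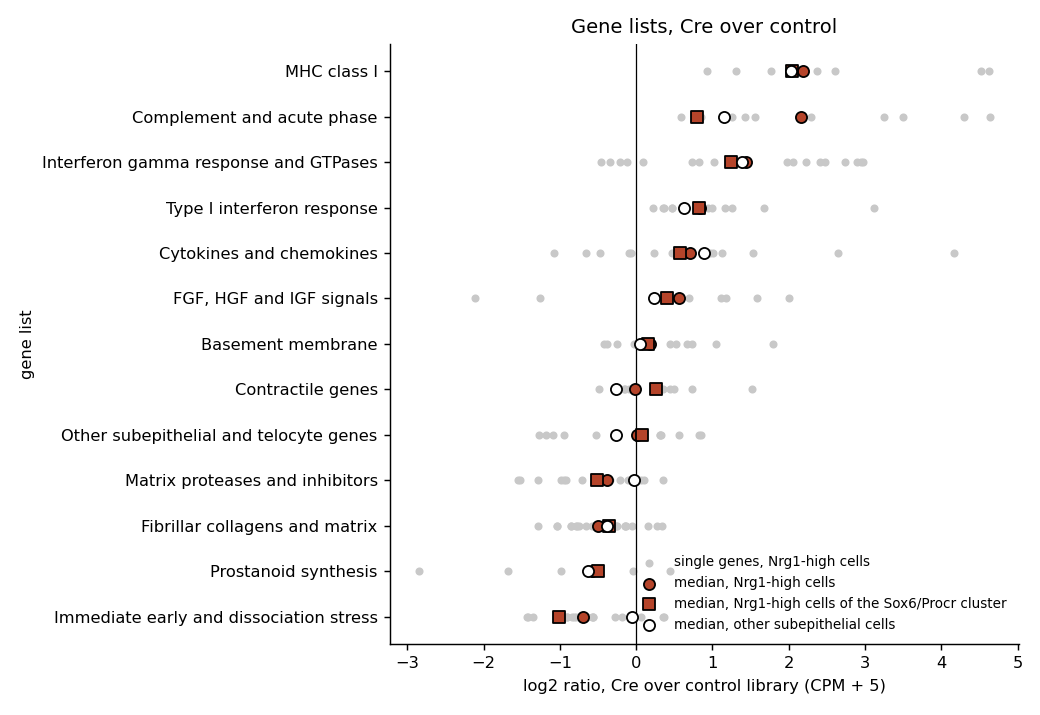
Log2 ratio of Cre over control (x axis, 5 CPM added) for 13 gene lists; grey points are single measured genes in Nrg1-high cells, red circles their median, red squares the median in members of the Sox6- and Procr-led cluster and white circles the median in other subepithelial cells. MHC class I stands at 2.19, 2.05 and 2.03 in these cells, and immediate early and dissociation stress genes at -0.70, -1.01 and -0.05.

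Among the other lists, cytokines and chemokines had 5 of 14 genes higher and 1 lower in Cre members, with a median log2 ratio of 0.70, and 1 of 9 higher and 1 lower, with a median of 0.57, in the Sox6- and Procr-led members. FGF, HGF and IGF signals had 4 of 11 higher and 2 lower, with a median of 0.56, and 1 of 9 higher and 1 lower, with a median of 0.40, in the Sox6- and Procr-led members. The remaining lists had at most 3 genes 2-fold apart each, with medians from -0.89 over 2 Notch pathway genes to 1.33 over 3 WNT antagonists. The ErbB receptor and protease list, with 4 genes measured, had none apart over all members or in the Sox6- and Procr-led ones, with medians of 0.42 and 0.54.

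The genes lower in Cre members were led by genes of the Cd36-led cluster, which held 1 Cre and 244 control members. Cd36 had 26.5 CPM in Cre and 248 CPM in control members, Tbxas1, the thromboxane synthase gene, had 11.6 CPM in Cre and 115 CPM in control members, and Hcar2, a receptor gene for hydroxybutyrate and niacin, had 24.9 CPM in Cre and 118 CPM in control members. Tnfaip3 had 41.5 CPM in Cre and 258 CPM in control members, and also 16.2 CPM in Cre and 235 CPM in control members of the Sox6- and Procr-led cluster. Stmn2, Pla2g7, Plk2, Igfbp6, Grip1, S100a4, Ahr and Tppp3 were the remaining 8 of the 12 lowest, with log2 ratios between -2.73 and -1.81. Ahr encodes the aryl hydrocarbon receptor, and had 31.5 CPM in Cre and 138 CPM in control members.

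The genes that marked Nrg1-high cells had mostly lower levels in Cre members, namely 10 of the 12 highest named above, the exceptions being Fam162b and Pappa. The same held in other subepithelial cells, where 11 of these 12 were lower in the Cre library, and of all measured genes 47.9% had a log2 ratio below 0 in Nrg1-high cells and 59.9% in other subepithelial cells. Ptgs2 had 445 CPM in Cre and 1436 CPM in control members and 434 CPM in Cre and 1199.9 CPM in control members of the Sox6- and Procr-led cluster, where the Cre value was 131 CPM without the cell holding most of its UMIs. Plau had 128 CPM in Cre and 319 CPM in control members. Ereg and Bmp2 were under 2-fold apart, with log2 ratios of -0.72 and -0.97. Prostanoid synthesis had 2 of 7 genes at least 2-fold lower and a median of -0.58, against 2 of 7 and -0.50 in the Sox6- and Procr-led members and a median of -0.63 in other subepithelial cells. Postn had 1488 CPM in Cre and 3611 CPM in control members, and 3 of 25 fibrillar collagen and matrix genes were lower, with a median of -0.50, against 1 of 22 and -0.35 in the Sox6- and Procr-led members and a median of -0.39 in other subepithelial cells. Of the rule's genes, Sox6 had 479 CPM in Cre and 241 CPM in control members, Bmp7 187 CPM in Cre and 219.7 CPM in control members, Foxl1 26.5 CPM in Cre and 41.7 CPM in control members and Wnt5a 184 CPM in Cre and 193 CPM in control members. Grem1 had 177 CPM in Cre and 43.2 CPM in control members and 77.0 CPM in Cre and 28.4 CPM in control members of the Sox6- and Procr-led cluster. The cluster shares given above moved with the values over all members.

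Immediate early and dissociation stress genes, which respond to tissue handling as well as to signals, were lower in Cre members. Of 27 measured genes 5 were at least 2-fold lower and none higher, with a median log2 ratio of -0.70; in the Sox6- and Procr-led members 14 of 27 were lower, with a median of -1.01. In other subepithelial cells over all clusters none of 27 was 2-fold apart and the median was -0.05. That value is not the counterpart of the -1.01, since other cells of the Sox6- and Procr-led cluster alone are not given for this list. Fos had 3254 CPM in Cre and 6582 CPM in control members, and Egr1 had 2553 CPM in Cre and 4494 CPM in control members, while Hspa1a, a heat shock gene, had 2496 CPM in Cre and 1930.1 CPM in control members. The difference between the populations has no test here. Ptgs2 and Ereg, which marked Nrg1-high cells, are themselves quickly induced genes.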

How the data were processed

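The authors deposited 1 matrix per library with raw UMI counts, which were whole numbers throughout. The labels give a 10x 5' kit, and Cell Ranger 8.0.1 with the build GRCm39 stand in the submitters' processing notes. The filters used before deposit are not given in the sources used here. Both libraries list 33696 features; 26 rows repeat a symbol and were left out of the ratios. Per-sample columns left unused numbered 0.

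Cells were selected by the rule given in the results. Counts were summed over the cells of a group, scaled to CPM, and compared as log2 ratios with 5 CPM added, over genes whose 2 groups averaged 50 CPM or more, leaving out the 10 genes of the rule. Calls are by size only (2-fold), with no tests, since each genotype has 1 library. Ratios print an exact binomial 95% interval of the CPM ratio without the added 5 CPM, and shares a Clopper-Pearson interval. Cells were thinned to 3000 UMIs with seed 1. Scrublet (scanpy 1.11.5, expected doublet rate 8%) was run on each library and marked 111 Cre and 393 control cells, which were kept in. Clusters came from 2000 variable genes without the rule, interferon, MHC and stress genes, 30 components, 15 neighbours and leidenalg 0.10.2 at resolution 1, which gave 19 clusters. Ratio calculations were tested on simulated data.

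Members, the 24 gene lists and 14 marker lists, and the comparisons were chosen with earlier results of these data known. Genes named are those of the rule, the 12 highest and 12 lowest of each comparison (over both libraries, by the smaller ratio, for Nrg1-high against other cells), and in each list discussed members at its ends or most abundant; predicted, mitochondrial, ribosomal protein, immunoglobulin, haemoglobin and sex-linked genes were left out. The comparison inside the Sox6- and Procr-led cluster was added after the data were seen and names all genes past 2-fold in both libraries. Of the list genes, 1 was not found among the features. The values of 1 gene are not reported here.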

Additional observations from a re-analysis of the deposited data

Results flagged for a closer look

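A gene was picked out here where Nrg1-high cells stood at least 2-fold above other subepithelial cells in one library and at least 2-fold below them in the other. None of these differences between the libraries was tested. Sfrp2, which encodes a secreted WNT modulator, had a log2 ratio of 1.12 in the Cre library, with 290.3 CPM in Nrg1-high and 131 CPM in other cells, and of -2.25 in the control library, with 24.9 CPM in Nrg1-high and 137 CPM in other cells. In the Cre library it had 539 CPM in members of the Cxcl13-led cluster and 56.8 CPM in those of the Sox6- and Procr-led cluster, and 1 cell held 27.4% of its UMIs in members. Cxcl1, a neutrophil chemokine gene, had a log2 ratio of -1.01 in the Cre library, with 685 CPM in Nrg1-high and 1386 CPM in other cells, and of 1.01 in the control library, with 1447 CPM in Nrg1-high and 716 CPM in other cells. Within the Sox6- and Procr-led cluster, Igfbp6, which encodes an IGF-binding protein, had a log2 ratio of -2.22 in the Cre library and 1.12 in the control library, but its Cre value rests on 4 UMIs in 3 of 31 cells.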

How the results depend on the processing

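No paired analysis was possible because each genotype has 1 library. Of 112 values recomputed under 14 alternatives, 71 stayed within the main value's 95% interval (shares), 1.5-fold (counts) or 0.2 log2 units (the type I interferon median), 41 moved further and 0 reversed; the cause was not tested unless the setting changes what is counted. With Nrg1 of at least 2 UMIs the shares of Nrg1-high cells were 7.05% in the Cre and 20.7% in the control library and the interferon median was 1.11; with at least 5 UMIs the shares were 1.75% Cre and 9.72% control. Members chosen after thinning to 3000 UMIs, 17 Cre and 127 control cells, had shares of 2.89% Cre and 8.51% control, 287 higher and 159 lower genes in the Cre library, 325 higher and 187 lower genes in Cre over control members, and an interferon median of 0.39. With at least 3 of 7 subepithelial genes the shares were 6.78% Cre and 20.2% control, with 42 higher and 32 lower genes in the Cre library and 36 lower in the control library. Higher and lower genes of Nrg1-high over other cells numbered 165 and 142 (Cre) and 96 and 94 (control) at a minimum of 20 CPM, which tests more genes, 24 and 27 (Cre) and 16 and 20 (control) at 200 CPM, which tests fewer, and 303 and 396 (Cre) and 140 and 192 (control) with no minimum. Those of Cre over control members numbered 213 and 113 at 20 CPM, 32 and 26 at 200 CPM, and 458 and 287 with no minimum. Adding 20 CPM left 54 higher genes in the Cre library, and weighting each cell alike gave an interferon median of 0.62. Cells of the Sox6- and Procr-led cluster only, an alternative chosen after the data were seen, gave shares of 7.40% Cre and 17.2% control, with 45 Cre and 31 control genes lower in Nrg1-high cells. The Cre share stayed below the control share in all 7 alternatives that choose cells differently, and the interferon median stayed between 0.39 and 1.11 in all 14. Leaving out called doublets, the looser barcode filter, 1 CPM added and size factors by the median of ratios moved none of these values further than the limits above. The number of cells limits the Cre values, as 57 members hold 602889 UMIs, so 1 CPM is under 1 UMI there.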

Other observations

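Nrg1 was not confined to the selected cells. Of the kept cells with at least 3 Nrg1 UMIs, 43 of 100 in the Cre library and 163 of 629 in the control library were not members. No Pdgfra UMI was seen in 21 Cre and 90 control cells of these, at least 3 Myh11 UMIs in 20 and 82, and under 2 of the 7 subepithelial genes in 27 and 65, and a cell could fail more than 1 criterion. A cluster led by the smooth muscle genes Myh11, Actg2 and Hhip held 12 of the Cre and 62 of the control cells that were not members, and the Sox6- and Procr-led and Cd36-led clusters together held 11 of the Cre and 90 of the control ones. Nrg1 stood at 82.7 CPM over the 192 Cre cells of that cluster (68.1 to 99.4) and at 132 CPM over its 822 control cells (122 to 141), with a Nrg1 UMI in 64 Cre cells (33.3%) and 321 control cells (39.1%), above the 0 of 45 and 1 of 47 lymphatic cells given above; median depths were 6414 and 6730 UMIs.

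Basement membrane genes differed within the Cre library between Nrg1-high and other subepithelial cells. Col4a5 and Col4a6, neighbouring type IV collagen genes, were higher in its Nrg1-high cells. Col4a5 had 250.5 CPM in Nrg1-high and 69.5 CPM in other Cre cells, and 157 CPM in Nrg1-high and 129 CPM in other control cells. Col4a6 had 148 CPM in Nrg1-high and 35.8 CPM in other Cre cells, and 87.2 CPM in Nrg1-high and 72.3 CPM in other control cells. On the basement membrane list 3 of 14 genes passed 2-fold upward in the Cre library, where 2.39% of all genes did, and none of 12 in the control library, where 1.75% did; Col4a6 is also a leading gene of the Sox6- and Procr-led cluster, whose share of the cells differed as given above. Ptch1, the Hedgehog receptor and target gene, had 357 CPM in Nrg1-high and 159 CPM in other Cre cells and 300.2 CPM in Nrg1-high and 180.1 CPM in other control cells, past 2-fold in the Cre library. These differences between the libraries were not tested.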
